A study of Mus musculus with 5 samples.

Results

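Mitochondrial ribosomal protein genes encode the proteins of the ribosome inside mitochondria, the mitoribosome. They were taken as every gene whose symbol begins with Mrpl or Mrps and a digit, without pseudogene symbols, and with at least 10 counts in at least 2 of the 5 heart pools sequenced. Of 78 such symbols in the deposited count table, 77 reached this minimum, among 14880 genes that reached it in all. The exception, Mrpl53, had 0 counts in every pool. In the GENCODE M21 annotation, 88.0% of the exon bases of Mrpl53 lie on the same strand as exons of Gm42688, and fragments that fall on both genes are dropped by the counting. Whether the Ensembl release used for counting has the same overlap was not checked, so the 0 is not read as a level.

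The hearts came from C57BL6/J mice at postnatal day 2, either wild type (CharmeWT) or carrying on the Charme locus an inserted PolyA signal that ends transcription of the long noncoding RNA early (CharmeKO). Hearts of littermates were pooled by genotype into 3 CharmeWT pools of 9 hearts and 2 CharmeKO pools of 3 hearts, so an effect of pool size cannot be told apart from one of genotype. Levels are given as CPM, counts relative to the size of each library, scaled by the trimmed mean of its gene ratios (TMM). The targeted gene, Charme, had 39.3, 10.4 and 14.0 CPM in CharmeWT pools 1 to 3, and 4.04 and 3.54 CPM in CharmeKO pools 1 and 2. The pools had 16721055 to 21646378 fragments assigned to genes. Summed before TMM scaling, the 10 cardiomyocyte markers took 56217 to 67976 CPM in CharmeWT pools, and 50724 and 56144 in CharmeKO pools. Genes of other tissues were also counted in CharmeKO pools. The 10 salivary gland genes took between 0.149 and 0.330 CPM in CharmeWT pools, where 6 of the 10 were at 0, but 291 in CharmeKO pool 1 and 26297 in pool 2, and all 6 of those tested were called. The 9 brown adipose genes took 699 to 861 CPM in CharmeWT pools, 768 in CharmeKO pool 1 and 2271 in pool 2, with 4 of 8 tested called. In whole hearts, a change in the share of a cell type and a change in RNA per cell cannot be told apart.

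The mitoribosome translates the few membrane proteins of the respiratory chain and of ATP synthase that the mitochondrial genome encodes. Its rRNAs come from that genome, whereas all of its proteins are made from nuclear genes in the cytosol and imported. Compared with the bacterial ribosome it carries less rRNA and many additional proteins, and in heart muscle, which is rich in mitochondria, several of its genes have been linked to inherited cardiomyopathy. Members were therefore ordered by subunit, by whether bacteria have a counterpart, and by their place in the ribosome. Mrps30 and Mrps18a, despite their names, belong to the large subunit, and Mrps36 is now assigned to the 2-oxoglutarate dehydrogenase complex and not to the ribosome.

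The comparison of CharmeKO with CharmeWT hearts asked which transcripts depend on Charme in the newborn heart. None of the 77 genes was called in either direction by edgeR's quasi-likelihood test, where a call needed an adjusted p under 0.1 together with an FPKM (fragments per kilobase of exon, scaled to sequencing depth) averaging 1 or more in some genotype. Across all 14880 genes, 1.53% were called higher and 0.524% lower. The lowest adjusted p among the 77 genes was 0.154 in that test, that of Mrpl46, with Mrps22 next to it. At an unadjusted p under 0.05, 18 of the 77 passed edgeR's quasi-likelihood test, all 18 with the higher level in CharmeKO, beside 10.6% of all genes in that direction. The log2 fold change (CharmeKO over CharmeWT) lay above 0 for 66 members and below 0 for 11, with a median of 0.26 and a range from -0.30 to 0.80. Over all genes tested its median was 0.02, and 51.8% lay above 0. The standard error of a member was 0.19 at the median, and the 95% interval of 59 members included 0. For 9 members that interval reached a 2-fold rise or more, and for 21 it lay wholly within 1.5-fold in either direction.

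**Figure D1:**
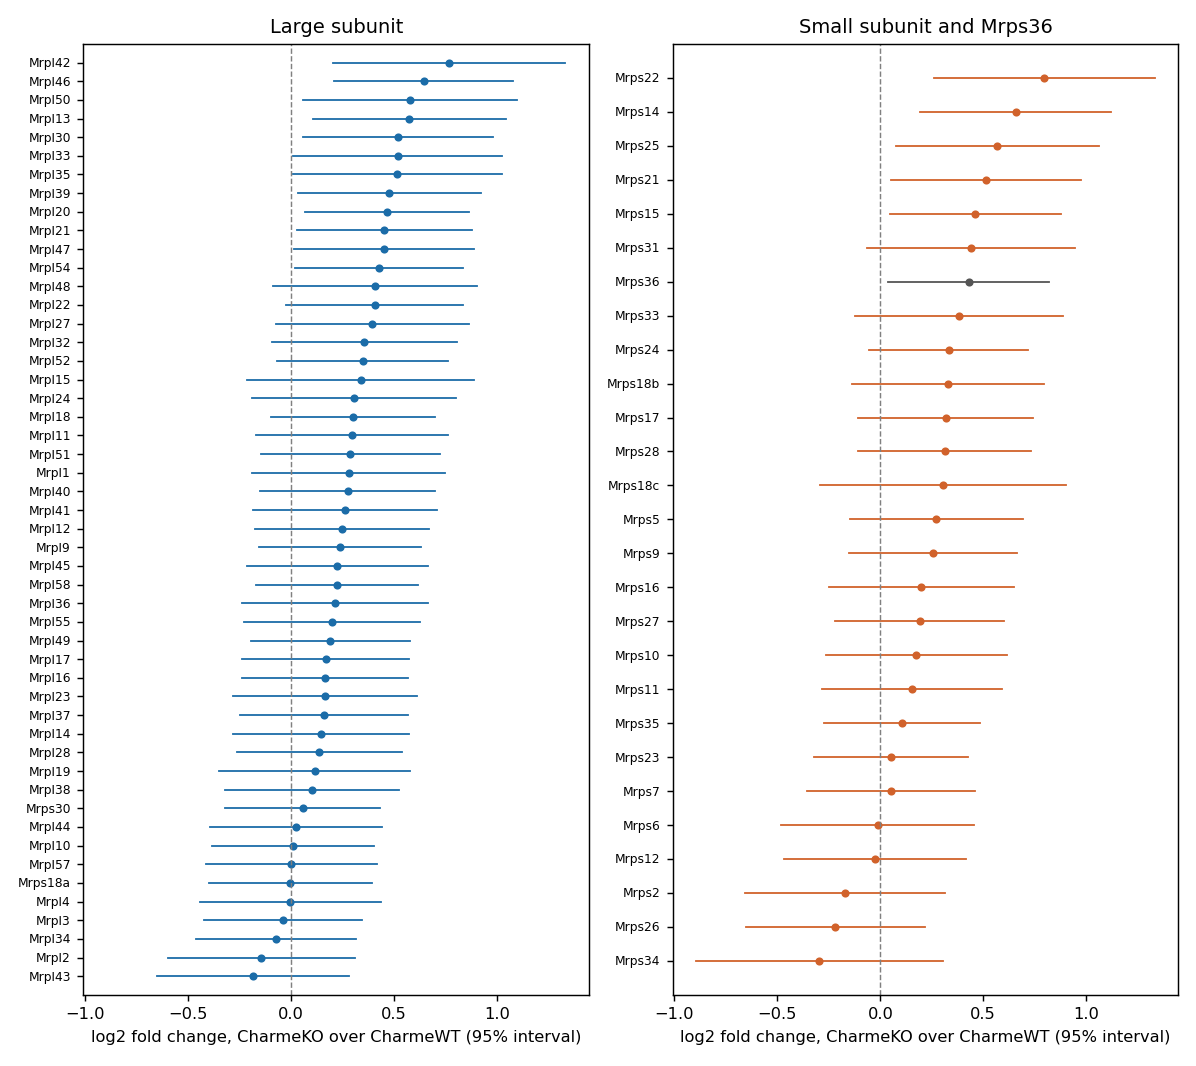
Log2 fold change (CharmeKO over CharmeWT, x axis) of each of the 77 genes (y axis, ordered by value), with points for the estimate of edgeR's quasi-likelihood fit and lines for its 95% interval. Large subunit genes are on the left, small subunit genes and Mrps36 (grey) on the right, and the intervals of 59 genes include 0.

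With other tests on the same pools, a few members were called. The authors tested with the likelihood ratio test of edgeR. Run here, that test called 4 of the 77 higher, Mrps22, Mrpl46, Mrps14 and Mrpl42, against 3.92% of all genes in that direction. It called 0 lower, against 2.35%. DESeq2 called the same 4 higher, against 4.33% of all genes, and 0 lower against 3.21%. The share among members, 4 of 77, is thus close to the share among all genes in both tests.

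The members stood differently in the 2 CharmeKO pools. Relative to the mean of the 3 CharmeWT pools, the median log2 deviation of the 77 genes was 0.09, 0.05 and -0.15 in CharmeWT pools 1 to 3, 0.42 in CharmeKO pool 1 and 0.11 in CharmeKO pool 2. CharmeKO pool 1 stood apart from the other 4 pools, and CharmeKO pool 2 was next to CharmeWT pool 1. The members also spread most widely in CharmeKO pool 1, where the standard deviation over genes was 0.37, against 0.14 in CharmeKO pool 2 and 0.07 to 0.12 in CharmeWT pools. Each CharmeWT pool is part of the mean it is compared with, which narrows its deviations, whereas CharmeKO pools are not. In CharmeKO pool 1, 20 members were more than 1.5-fold above the CharmeWT mean, and in pool 2 there were 0. Summed over the 77 genes, the normalized level was 4728, 4621 and 3967 CPM in CharmeWT pools 1 to 3, and 5869 and 4877 CPM in CharmeKO pools 1 and 2. The sum averaged 4439 CPM ± 412 (SD, n = 3) in CharmeWT and 5373 CPM ± 701 (SD, n = 2) in CharmeKO pools, and with 10 possible assignments of the pools no exact two-sided p below 0.1 can be reached. Before TMM scaling, which gave CharmeKO pool 1 a factor of 0.845, the 77 genes took 0.431% to 0.483% of the counts in CharmeWT pools, and 0.495% and 0.503% in CharmeKO pools.

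**Figure D2:**
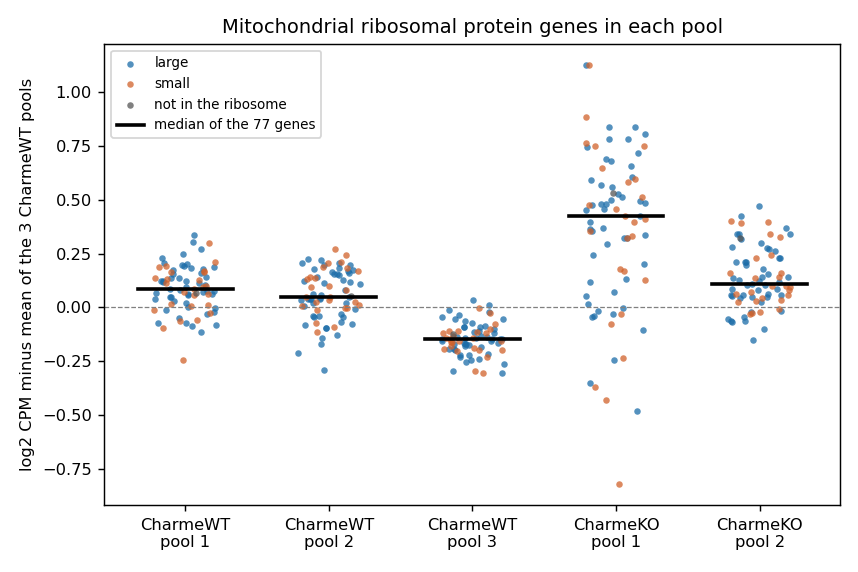
Log2 CPM of each of the 77 genes minus its mean over the 3 CharmeWT pools (y axis) in every pool (x axis), with black bars for the median over genes and colours for the subunit. The median is 0.42 in CharmeKO pool 1 and 0.11 in CharmeKO pool 2, while CharmeWT pool 3 has the lowest median, -0.15.

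Both CharmeKO pools lay above every CharmeWT pool for 27 members, against 17.8% of all genes, and below every CharmeWT pool for 0 members, against 18.2% of all genes. For the other 50 members the genotypes overlapped. Leaving out CharmeKO pool 2 gave 33 members called higher and 2 called lower (Mrpl43 and Mrps34), but that fit also called 16.1% of all genes higher and 15.6% lower. With each pool also corrected for its trends with gene length and GC content, it gave 24 members called higher, against 8.5% of all genes, and 1 lower, against 5.81%. Leaving out CharmeKO pool 1 gave, with no correction, a median log2 fold change of 0.11 over members and -0.006 over all genes.

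Mrps22, a mitochondria-specific protein of the small subunit whose human counterpart is mutated in a mitochondrial disease with cardiomyopathy, had the largest log2 fold change. Its level was 28.3, 32.9 and 24.8 CPM in CharmeWT pools 1 to 3, and 62.3 and 37.5 CPM in CharmeKO pools 1 and 2. Both CharmeKO pools lay above the CharmeWT pools, with pool 1 far above pool 2. The log2 fold change was 0.80 (SE 0.24, 95% interval 0.26 to 1.34, edgeR's quasi-likelihood test, adjusted p = 0.154). The likelihood ratio test of edgeR gave an adjusted p of 0.0625 and DESeq2 one of 0.0554. After the correction for length and GC content the log2 fold change was 0.71.

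Mrpl46, a protein of the central protuberance at the top of the large subunit, was the member whose 2 CharmeKO pools were most alike among the 4 called by the likelihood ratio test. It had 28.3, 28.6 and 24.4 CPM in CharmeWT pools and 47.3 and 37.5 CPM in CharmeKO pools, with no overlap between genotypes. Its log2 fold change was 0.64 (SE 0.19, adjusted p = 0.154 by the quasi-likelihood test of edgeR, 0.0793 by its likelihood ratio test), and it was 0.58 after a correction of each pool for its trends with gene length and GC.

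Mrps14, of the head of the small subunit and also a human cardiomyopathy gene, had 36.2, 31.9 and 28.8 CPM in CharmeWT pools and 59.6 and 42.5 CPM in CharmeKO pools. The genotypes did not overlap. The log2 fold change was 0.66 (SE 0.21, adjusted p = 0.165 by edgeR's quasi-likelihood test, 0.0905 by the likelihood ratio test), and 0.28 after the correction for length and GC content.

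Mrpl42, a mitochondria-specific protein of the large subunit, had 248, 196 and 168 CPM in CharmeWT pools and 439 and 255 CPM in CharmeKO pools. CharmeKO pool 2 was barely above CharmeWT pool 1. The log2 fold change was 0.77 (SE 0.25, adjusted p = 0.178 by edgeR's quasi-likelihood test, 0.0956 by the likelihood ratio test), and 0.50 after the correction.

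The next largest differences were those of Mrpl50, mitochondria-specific and of the large subunit, and Mrpl13, a large subunit protein with a bacterial counterpart. Mrpl50 had a log2 fold change of 0.58 (SE 0.23), but CharmeWT pool 1 at 63.6 CPM was above CharmeKO pool 2 at 62.8 CPM, and after the correction for length and GC content the value was 0.12. Mrpl13, with 53.7 to 69.6 CPM in CharmeWT pools and 110 and 74.6 CPM in CharmeKO pools, had one of 0.58 (SE 0.21, adjusted p = 0.205 by edgeR's quasi-likelihood test), and 0.40 after the correction.

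At the other end, none of the 5 most negative members had CharmeKO pools clear of the CharmeWT pools. Mrps34, of the small subunit, had 45.0, 56.9 and 43.4 CPM in CharmeWT pools and 27.1 and 51.5 CPM in CharmeKO pools. CharmeKO pool 1 was the lowest of all pools and CharmeKO pool 2 the second highest, and the log2 fold change was -0.30 (SE 0.27). Of its exon bases, 37.0% overlap Nme3 on the same strand, so part of its fragments may go uncounted. Mrps26, also of the small subunit, had 47.2, 49.9 and 43.1 CPM in CharmeWT pools and 34.6 and 45.7 CPM in CharmeKO pools, and a log2 fold change of -0.22 (SE 0.19). Mrpl43 had at least 43.2 CPM in each CharmeWT pool, and 34.0 and 49.7 CPM in CharmeKO pools. Mrps2, the counterpart of a bacterial protein that joins the small subunit late, had a log2 fold change of -0.17 (SE 0.22), and Mrpl2, which lies near the peptidyl transferase center, one of -0.14 (SE 0.20). Without CharmeKO pool 1, the log2 fold changes of Mrps34, Mrpl43, Mrps2 and Mrpl2 were 0.09, 0.06, 0.02 and 0.05, and that of Mrps26 was -0.03.

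**Figure D3:**
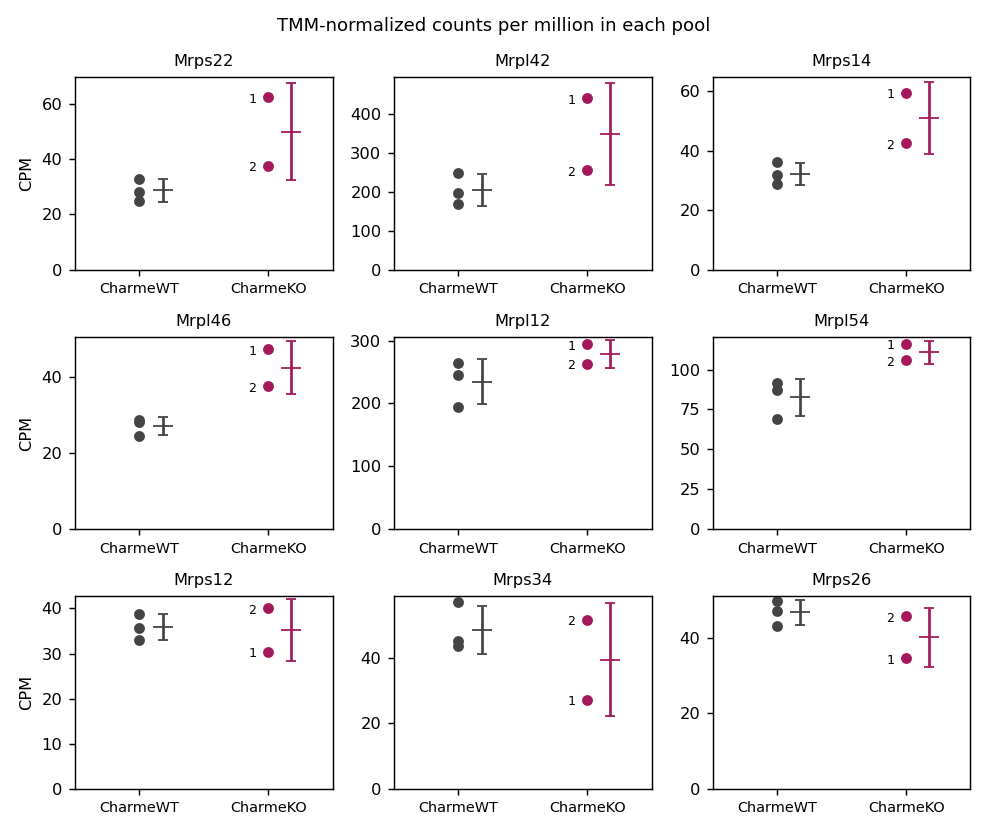
Normalized level in CPM (y axis) of 9 genes in the 3 CharmeWT and 2 CharmeKO pools (points, CharmeKO pools numbered), with the mean and standard deviation beside them. Both CharmeKO pools of Mrps22, Mrpl42, Mrps14, Mrpl46 and Mrpl54 lie above the CharmeWT pools, while CharmeKO pool 1 is the lowest pool for Mrps12, Mrps34 and Mrps26.

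The subunits were described side by side, with no test of a difference between them. In the large subunit, 44 of 50 genes had a log2 fold change above 0, with a median of 0.25, and in the small subunit 21 of 26, with a median of 0.26. After the correction for length and GC content these medians were 0.21 and 0.14. At an unadjusted p under 0.05 by edgeR's quasi-likelihood test there were 12 large and 5 small subunit genes, and Mrps36 besides. All of them were higher in CharmeKO, beside 10.6% of all genes in that direction. Both CharmeKO pools exceeded the CharmeWT pools for 16 of 50 large and 10 of 26 small subunit genes, against 17.8% of all genes. Proteins with a bacterial counterpart had a median of 0.26 in both the large (30 genes) and the small subunit (16 genes), and mitochondria-specific proteins one of 0.24 in the large (20 genes) and 0.26 in the small subunit (10 genes). After the correction the 10 mitochondria-specific genes of the small subunit had a median of 0.08, and the other 3 classes had medians of 0.21 to 0.24 (0.21 and 0.22 in the large subunit, 0.24 in the small). The ratio of the summed FPKM of large to small subunit genes, computed on the principal transcript, was 2.74 to 2.83 in CharmeWT pools, and 2.98 and 2.83 in CharmeKO pools.

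The stalk of the large subunit recruits translation factors. Mrpl12, its repeated protein, had 245, 264 and 195 CPM in CharmeWT pools and 294 and 263 CPM in CharmeKO pools, a log2 fold change of 0.25 (SE 0.19). CharmeKO pool 2 was within the CharmeWT range. Mrpl10, which anchors Mrpl12 to the ribosome, was level, with 57.3 to 70.5 CPM in CharmeWT pools and 61.8 and 65.5 CPM in CharmeKO pools, and a 95% interval from -0.38 to 0.40. Mrpl11, at the base of the stalk, had a log2 fold change of 0.29 (SE 0.21). Mrpl54, a mitochondria-specific protein near the stalk, had 87.1, 91.4 and 69.2 CPM in CharmeWT pools and 116 and 106 CPM in CharmeKO pools, with no overlap and a log2 fold change of 0.43 (SE 0.18, adjusted p = 0.256 by edgeR's quasi-likelihood test). It is the member of highest GC content, 60.8%.

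At the exit of the polypeptide tunnel, where new chains meet the inner membrane, all 6 genes had log2 fold changes from 0.16 to 0.45. Of all 77 members, 66 had log2 fold changes above 0. In CharmeKO pool 2, 2 of the 6 genes lay below their CharmeWT mean. Mrpl45, which tethers the ribosome to the inner membrane, had a log2 fold change of 0.23 (SE 0.20). It had 54.8 to 73.4 CPM in CharmeWT pools and 85.3 and 67.3 CPM in CharmeKO pools. The 8 genes of the central protuberance had log2 fold changes from 0.10 to 0.64. Among them is Mrpl58, a peptidyl-tRNA hydrolase that became a ribosomal protein, with 53.8 to 63.4 CPM in CharmeWT pools and 74.2 and 64.7 CPM in CharmeKO pools. Its CharmeKO pools lay above the CharmeWT pools, by 0.22 on the log2 scale (SE 0.18).

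Members linked to human cardiomyopathy differed among themselves. Beside Mrps22 and Mrps14, Mrpl3 had 81.7 to 100 CPM in CharmeWT pools and 91.8 and 88.1 CPM in CharmeKO pools, and a log2 fold change of -0.04 (SE 0.17). Mrpl44, related to ribonuclease III, had 36.0 to 45.1 CPM in CharmeWT pools and 39.5 and 40.3 CPM in CharmeKO pools, and one of 0.02 (SE 0.19). The genotypes overlapped for both.

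Other members with a known role also varied. Mrps12, near the decoding site, had 33.1 to 38.8 CPM in CharmeWT pools and 30.4 and 40.0 CPM in CharmeKO pools. The CharmeKO pools lay on either side of the CharmeWT range, and Mrps12 had a log2 fold change of -0.03 (SE 0.20). Mrps5, near the mRNA entry, had one of 0.27 (SE 0.19). The 3 paralogs of bacterial S18 had values of 0.00 (Mrps18a, SE 0.18), 0.33 (Mrps18b, SE 0.21) and 0.31 (Mrps18c, SE 0.27), and only for Mrps18b, with 15.5 to 20.3 CPM in CharmeWT pools and 22.3 and 22.6 CPM in CharmeKO pools, did the genotypes not overlap. Of the exon bases of Mrps18c, 23.2% overlap Gm43511. Mrps30 had 0.06 (SE 0.17), Mrpl36 0.21 (SE 0.20), and Mrps36, the dehydrogenase subunit, 0.43 (SE 0.18), with 43.9 to 50.1 CPM in CharmeWT pools and 69.1 and 59.7 CPM in CharmeKO pools. After the correction for length and GC content the value of Mrps36 was 0.10.

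As levels per kilobase of the principal transcript, the 77 genes ranged from 4.81 to 392 FPKM in the mean of the 5 pools, with a median of 34.9. Mrpl42 was highest, with 306 FPKM ± 61.3 (SD, n = 3) in CharmeWT and 521 FPKM ± 196 (SD, n = 2) in CharmeKO pools. Mrpl12 followed with 178 FPKM ± 27.1 in CharmeWT, then Mrpl54 with 137 ± 19.5, Mrps21 with 130 ± 15.8 and Mrpl52 with 135 ± 15.4, and these last 3 did not differ beyond their spread. Mrps25 (4.81 FPKM), Mrpl17 (5.12 FPKM) and Mrpl19 (6.76 FPKM) were lowest, with long principal transcripts of 6073, 7300 and 5000 bases. The order depends on the length taken for each gene. The principal transcript of Mrpl42 spans 666 bases, whereas the union of its exons spans 3682.

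GC content went with the differences in CharmeKO pool 1. Over the 77 genes, the log2 deviation from the CharmeWT mean and the GC content of the transcripts had Pearson's r of -0.48 (Spearman's rho -0.48) in CharmeKO pool 1, and -0.02 (rho -0.01) in pool 2. Over all genes with an annotation the values of r were -0.48 and -0.03, close to those of the members. In CharmeWT pools 1 to 3, r over members was -0.27, 0.30 and -0.07. These values describe genes that share a library and carry no test.

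In each of 3 bands of GC content, the median deviation of members in CharmeKO pool 1 was above that of all genes tested. The bands do not take gene length into account. In the band of lowest GC content, up to 47.6%, 26 members had a median deviation of 0.57 in CharmeKO pool 1, and all genes in that range had 0.42. In the middle band, 25 members had 0.40, and all genes had -0.04. In the band above 52.4% GC, 26 members had 0.33, and all genes had -0.41. In CharmeKO pool 2 the medians of the members were 0.10, 0.11 and 0.14 from the lowest to the highest band, against 0.04, -0.01 and -0.01 for all genes, and in CharmeWT pool 3 they were -0.15, -0.14 and -0.15. Both CharmeKO pools exceeded the CharmeWT pools for 9 members in each band, against 26.7%, 17.4% and 9.92% of all genes from the lowest to the highest band. After the same correction of each pool for length and GC content, the median deviation of members was 0.34 in CharmeKO pool 1 and 0.05 in CharmeKO pool 2, and 59 members had a log2 fold change above 0. Members are short, with a median principal transcript of 1316 bases, against 2893 for all genes tested. The part of library composition and of the salivary gland and brown adipose RNA in these differences was not tested.

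**Figure D4:**
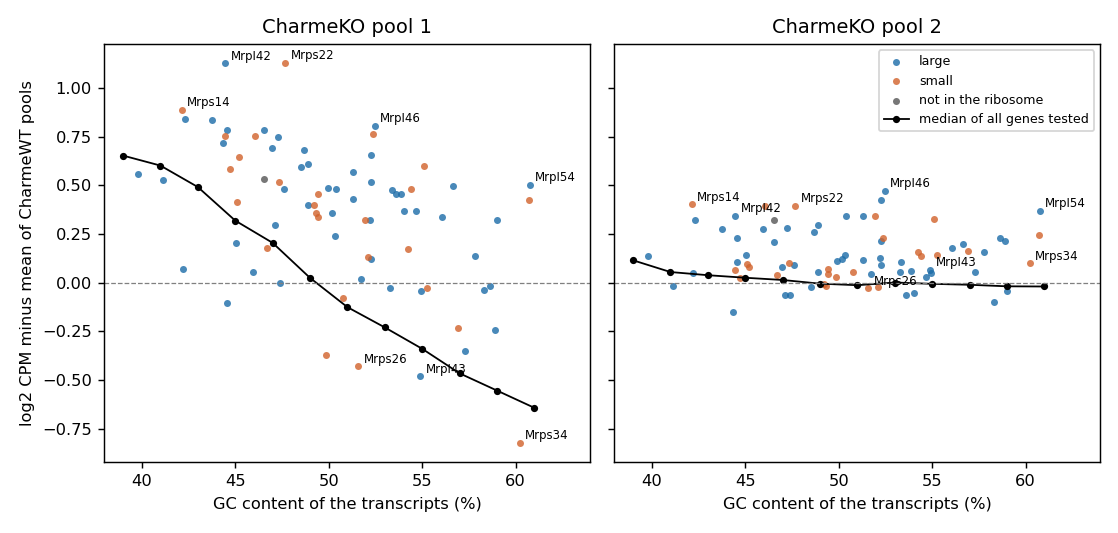
GC content of the transcripts in percent (x axis) against log2 CPM minus the mean of the CharmeWT pools (y axis) for the 77 genes (points, coloured by subunit) in CharmeKO pool 1 and pool 2. Black lines join the medians of all genes tested in steps of 2 percentage points, which fall with GC content in pool 1 and are nearly flat in pool 2.

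Proteins of the mitoribosome that bear other symbols were looked up as well. All 5 had log2 fold changes above 0. By the quasi-likelihood test of edgeR 0 were called, with 2 at an unadjusted p under 0.05, while the likelihood ratio test and DESeq2 each called 1, Chchd1. Chchd1, of the small subunit, had 56.5, 46.5 and 43.6 CPM in CharmeWT pools and 100 and 61.0 CPM in CharmeKO pools, and a log2 fold change of 0.72 (SE 0.23, adjusted p = 0.168 by edgeR's quasi-likelihood test, 0.0851 by its likelihood ratio test). Ptcd3, a pentatricopeptide repeat protein of the small subunit, had 66.2 to 88.0 CPM in CharmeWT pools and 159 and 90.7 CPM in CharmeKO pools, and a log2 fold change of 0.68 (SE 0.24). The genotypes did not overlap for either gene. Aurkaip1 had 0.36 (SE 0.17), Dap3, which binds GTP in the small subunit, 0.20 (SE 0.18), and Gadd45gip1, of the large subunit, 0.09 (SE 0.18).

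Among 4 groups of genes that act on or beside the mitoribosome, edgeR's quasi-likelihood test called 0, with at most 4 genes of a group at an unadjusted p under 0.05. The likelihood ratio test called 1 gene higher, Slirp, and DESeq2 called Slirp higher and Polg lower. Differences between these groups and the members were not tested. The 15 translation factors and mRNA-binding proteins showed a median log2 fold change of 0.11, and medians of 0.33 in CharmeKO pool 1 and -0.01 in pool 2. The elongation factor Tufm had -0.01 (SE 0.19) and the membrane insertase Oxa1l -0.26 (SE 0.18). Slirp, which stabilizes mitochondrial mRNAs and was chosen after its values were seen, had 25.8 to 33.9 CPM in CharmeWT pools and 61.1 and 43.3 CPM in CharmeKO pools, and a log2 fold change of 0.77 (SE 0.21, adjusted p = 0.137 by edgeR's quasi-likelihood test, 0.0447 by its likelihood ratio test). The 20 genes that charge mitochondrial tRNAs had a median of 0.13 (0.21 after the correction for length and GC content, where the members had 0.20), with 0.54 (SE 0.20) for Ears2 and -0.52 (SE 0.22) for Lars2. The 25 genes of mitoribosome assembly and rRNA modification had one of 0.08, with -0.32 (SE 0.20) for Rbfa and -0.09 (SE 0.26) for Mpv17l2. The 12 genes of mitochondrial transcription and DNA maintenance had one of -0.12, with 0.31 (SE 0.22) for Tfb2m and 0.20 (SE 0.22) for Tefm.

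Of 12 regulators of nuclear genes for mitochondria, 0 were called by edgeR's quasi-likelihood test, its likelihood ratio test or DESeq2, with 2 at an unadjusted p under 0.05 in the first of these. Their median was -0.01. Nrf1, which binds GC-rich sites in many such promoters, had 24.3 to 28.0 CPM in CharmeWT pools and 23.4 and 28.5 CPM in CharmeKO pools, a log2 fold change of 0.02 (SE 0.20). For the ETS factor GABP, the DNA-binding subunit Gabpa had 0.14 (SE 0.20) and its partners Gabpb1 and Gabpb2 had 0.29 (SE 0.20) and 0.09 (SE 0.22). Yy1, a zinc finger factor, had -0.33 (SE 0.18), with both CharmeKO pools below the CharmeWT pools. The coactivator Ppargc1a had 78.7 to 100 CPM in CharmeWT pools, 218 CPM in CharmeKO pool 1 and 86.4 CPM in pool 2, so its log2 fold change of 0.77 (SE 0.32) came from 1 pool. Its relatives Ppargc1b and Pprc1 had -0.19 (SE 0.24) and -0.19 (SE 0.31). Esrra, a nuclear receptor that works with Ppargc1a, had 150 to 165 CPM in CharmeWT pools and 107 and 123 CPM in CharmeKO pools, and -0.45 (SE 0.17, adjusted p = 0.214 by edgeR's quasi-likelihood test). Esrrb had 0.06 (SE 0.29), Esrrg -0.07 (SE 0.24) and Myc -0.04 (SE 0.25).

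The 13 mRNAs that the mitoribosome translates took 105332 to 107727 CPM before TMM scaling in CharmeWT pools, 198243 in CharmeKO pool 1 and 95421 in pool 2. Of the 13, edgeR's quasi-likelihood test called 0, with 4 at an unadjusted p under 0.05, its likelihood ratio test called 1 higher, mt-Nd2, and DESeq2 called 2 higher, mt-Nd1 and mt-Nd2. Their abundant members were mt-Co1, with 86438 CPM in CharmeKO pool 1 against 38080 to 39465 CPM in CharmeWT pools, and mt-Nd1, with 52353 CPM against 16358 to 23363 CPM. CharmeKO pool 2 had 30606 CPM of mt-Co1 and 19546 CPM of mt-Nd1. The sum was highest in CharmeKO pool 1, the pool with the highest median of members. There, 4 of the 13 mRNAs lay below their CharmeWT mean, each within the range of CharmeWT pools. Of these, mt-Co3 (-0.57 on the log2 scale) had 72.8 CPM, against 53.6 to 201 CPM in CharmeWT pools. The corresponding values of mt-Atp6 were -0.52, 58.7 CPM and 44.7 to 175 CPM. In the mean of the 5 pools, mt-Nd3, mt-Atp6, mt-Co3 and mt-Co2 had 50.7, 114, 124 and 213 FPKM, against 30221 for mt-Co1. Whether fragments of these 4 mRNAs went uncounted was not checked, so their values are not read as levels. The log2 fold change was below 0 for 5 of the 13, these 4 and mt-Nd4l (17.2 FPKM), to which the same limit applies. With them included, the median of the group was 0.56 before and -0.33 after the correction for length and GC content. Other families of short, abundant mRNAs, chosen after the data were seen, stood as follows. The 77 cytosolic ribosomal protein genes had medians of 0.70 in CharmeKO pool 1 and 0.39 in pool 2. The quasi-likelihood test of edgeR called 1 of them higher, its likelihood ratio test 20 and DESeq2 30, against 1.53%, 3.92% and 4.33% of all genes. The 36 nuclear genes of complex I had medians of 0.52 and 0.08, with 0 called by either edgeR test, 4 at an unadjusted p under 0.05 in the quasi-likelihood test, and 1 called by DESeq2 (Ndufv3). The median log2 fold change was 0.54 for the cytosolic ribosomal protein genes and 0.33 for those of complex I. After the correction for length and GC content these medians were 0.47 and 0.18.

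**Figure D5:**
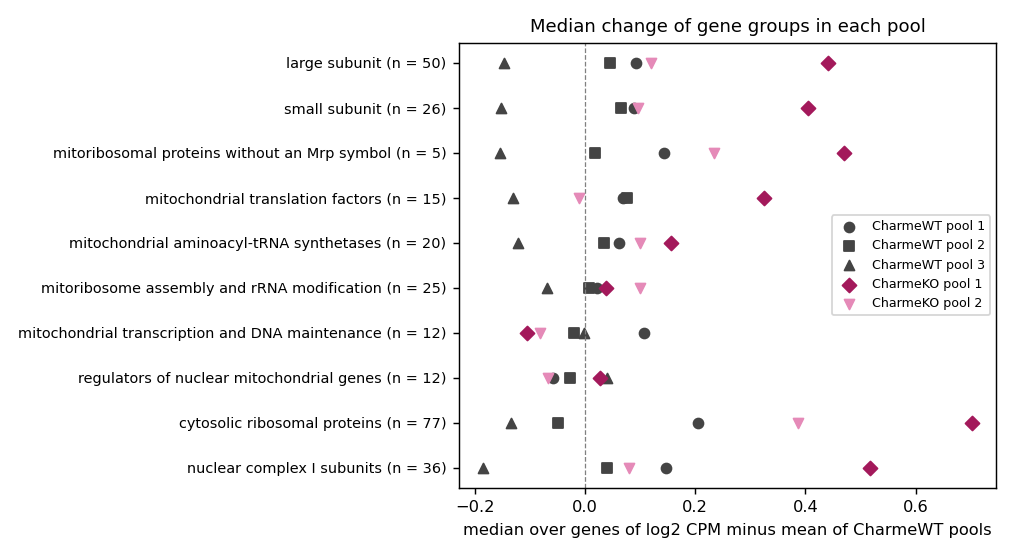
Median over the genes of each group (y axis, with the number of genes) of log2 CPM minus the mean of the CharmeWT pools (x axis), one symbol per pool. For the large and the small subunit, CharmeKO pool 1 (diamonds) is at 0.44 and 0.40 and CharmeKO pool 2 (light triangles) at 0.12 and 0.10.

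Promoters were read from RefSeq on GRCm38.p6, in windows of 300 bases from 250 before to 50 after the start of each gene. Windows were found for 69 of the 78 symbols, 75 windows in all, and their letters were searched on both strands for short sites of 3 factors with which such genes are commonly linked. The ETS site CCGGAAG was in 26 of the 75 windows (34.7%), against 8.86% of all 32851 windows and 16.1% of the 14061 windows of genes tested here. The YY1 site AAGATGGC was in 12 (16%), against 2.75% and 4.03%. The NRF1 core CGCANGCG was in 20 (26.7%), against 8.21% and 15.6%. ETS and YY1 sites can share the letters AAG, and copies of the NRF1 core can overlap. The GC box GGGCGG, searched as well, was in 39 (52%), against 35.7% and 60.7%, and the TATA letters TATAAA in 5 (6.67%), against 13.6% and 7.47%. At least 1 of the ETS, YY1 and NRF1 sites was in 44 family windows (58.7%), against 17.6% of all windows. This combined share was not computed for the windows of genes tested. Family windows had a median GC content of 58.7%, against 52.7% for all windows, and the windows compared were not matched for it. Some genes, such as Mrpl2 and Mrpl48, have several windows. Members with the ETS site (25 tested) showed 0.29 as the median log2 fold change, and those without it (43) one of 0.26. With the YY1 site (12) the median was 0.19, and without it (56) 0.28. With the NRF1 core (20) it was 0.21, and without it (48) 0.29. With the GC box (34) it was 0.27, and without it (34) 0.25. A match is a description of the letters and not a bound site.

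The 150 bases from 100 before to 50 after the start are shown for the 4 members called by the likelihood ratio test and for the 4 of the 5 lowest members that have a window, with the ETS, YY1 and NRF1 sites in capitals. On GRCm38.p6 they are chr9:98601630-98601779 (minus strand) for Mrps22, chr10:95501900-95502049 (minus) for Mrpl42, chr1:160195115-160195264 (plus) for Mrps14, chr7:78783040-78783189 (minus) for Mrpl46, chr2:130563657-130563806 (plus) for Mrps26, chr19:45006393-45006542 (minus) for Mrpl43, chr2:28467966-28468115 (plus) for Mrps2 and chr17:46646121-46646270 (plus) for Mrpl2. Each is written from 5′ to 3′ on the strand of its gene.
Mrps22: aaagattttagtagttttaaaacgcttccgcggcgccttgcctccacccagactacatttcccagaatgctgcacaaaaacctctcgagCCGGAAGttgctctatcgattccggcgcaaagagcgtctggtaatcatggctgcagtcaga
Mrpl42: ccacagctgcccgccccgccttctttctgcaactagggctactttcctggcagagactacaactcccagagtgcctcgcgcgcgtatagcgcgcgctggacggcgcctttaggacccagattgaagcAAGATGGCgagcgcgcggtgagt
Mrps14: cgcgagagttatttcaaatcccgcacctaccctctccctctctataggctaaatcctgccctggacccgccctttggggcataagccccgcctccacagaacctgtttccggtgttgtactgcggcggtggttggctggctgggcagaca
Mrpl46: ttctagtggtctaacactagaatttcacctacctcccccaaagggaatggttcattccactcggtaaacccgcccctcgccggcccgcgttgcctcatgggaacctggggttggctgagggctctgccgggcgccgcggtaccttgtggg
Mrps26: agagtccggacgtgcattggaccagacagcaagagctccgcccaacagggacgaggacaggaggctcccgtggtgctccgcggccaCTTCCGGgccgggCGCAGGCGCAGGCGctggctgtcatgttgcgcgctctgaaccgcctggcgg
Mrpl43: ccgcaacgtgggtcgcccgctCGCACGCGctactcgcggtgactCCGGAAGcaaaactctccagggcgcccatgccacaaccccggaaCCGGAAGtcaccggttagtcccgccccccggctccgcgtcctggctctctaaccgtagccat
Mrps2: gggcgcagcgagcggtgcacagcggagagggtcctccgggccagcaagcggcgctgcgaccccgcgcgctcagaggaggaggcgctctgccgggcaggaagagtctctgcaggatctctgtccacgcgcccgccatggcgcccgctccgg
Mrpl2: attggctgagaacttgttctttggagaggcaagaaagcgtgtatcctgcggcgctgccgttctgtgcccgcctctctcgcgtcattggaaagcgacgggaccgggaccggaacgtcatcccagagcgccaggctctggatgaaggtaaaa
Mrps22 holds an ETS site just before its start and Mrpl42 a YY1 site just after it, while Mrps14 and Mrpl46 hold none of the 3 in these bases. Of the members with negative log2 fold changes, Mrps26 and Mrpl43 hold both ETS and NRF1 letters, and Mrps2 and Mrpl2 hold none of the 3. The GC box is in the windows of all 4 members called by the likelihood ratio test, and in those of Mrps26, Mrpl43 and Mrpl2 but not Mrps2. Among windows of genes tested, 60.7% hold it.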

How the data were processed

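RNA-seq was done on poly(A) RNA of 3 CharmeWT and 2 CharmeKO heart pools with a stranded kit. Trimming by the authors left paired reads of 35 nucleotides or longer, which STAR aligned to GRCm38, and the deposited values are raw counts of fragments on genes of Ensembl release 87. Total counts per pool lay between 16721055 and 21646378. The reads carry no molecular identifiers, and p-values measure the spread between pools. The deposited FPKM table was not used.

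The genes that reached 10 counts in 2 or more pools were scaled by TMM and tested for genotype with the quasi-likelihood test of edgeR 4.0.16 in R 4.3.3 (DESeq2 1.42.0 and limma 3.58.1 were also used), with Benjamini-Hochberg adjustment over all 14880 genes. FPKM for calls was computed on the union of exons, and levels between genes on the principal transcript of GENCODE M21. The standard error was derived from the log2 fold change and its F statistic. Scripts were tested on simulated data. A gene's trend on length and GC content was corrected per pool with splines of 4 degrees of freedom. Single log2 CPM deviations came from TMM-scaled counts.

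Members and lists were chosen with earlier results of these data known. Named members were those called, the 5 with the largest rise and 5 with the largest fall, the 5 with the highest and 3 with the lowest mean FPKM, the 5 with the lowest unadjusted p, and members with a known role. From the lists, the 2 most abundant genes of the translation groups, and all tested members of the small groups of other mitoribosomal proteins and of regulators, were named. By edgeR's quasi-likelihood test, the other marker lists gave these calls: 0 of 10 cardiomyocyte, 0 of 9 endothelial, 0 of 8 fibroblast, 1 of 8 macrophage (Mrc1), 2 of 6 erythroid (Hba-a1 and Hbb-bt) and 3 of 8 skeletal muscle genes (Myh8, Mylpf and Tnnc2). Of the lists with 0, the cardiomyocyte, endothelial and fibroblast genes had 1, 3 and 1 at an unadjusted p under 0.05. The likelihood ratio test and DESeq2 both also called Postn (fibroblast), Cx3cr1 (macrophage, lower), Hbb-bs and Alas2 (erythroid), Pparg (brown adipose), and Tnnt3 and Tnni2 (skeletal muscle), and DESeq2 called Nppa and Myh6 (cardiomyocyte, lower for Myh6) but not Ucp1. The brown adipose genes called were Ucp1, Adipoq, Plin1 and Dio2, and the salivary gland genes Bpifa2, Smgc, Prol1, Dcpp1, Dcpp3 and Pip.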

Additional observations from a re-analysis of the deposited data

How the results depend on the processing

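Across the alternatives, the median log2 fold change of the 77 genes stayed above 0, from 0.061 to 0.41. The numbers called moved to 4 higher by the likelihood ratio test and 4 higher by DESeq2, beside 3.92% and 4.33% of all genes. They were 0 with the legacy or robust quasi-likelihood test, RLE or upper-quartile factors, without the FPKM filter, and with filterByExpr. They were also 0 with no filter on low counts, a threshold of 0.05 on the adjusted p, and the correction for length and GC content. With each pool left out in turn, members called higher ranged from 0 to 33, members called lower from 0 to 2 and the median from 0.11 to 0.41, the extremes coming without CharmeKO pool 1 or 2. A lone CharmeKO pool was then taken to vary like the CharmeWT pools. Without CharmeKO pool 2, 16.1% of all genes were called higher and 15.6% lower. The counts of that fit are therefore not read as specific to the members. Chosen after seeing the data, the correction for length and GC content without CharmeKO pool 1 gave a median of 0.061 and 0 calls, and without CharmeKO pool 2 a median of 0.32, 24 called higher and 1 lower, beside 8.5% and 5.81% of all genes. Why the 2 CharmeKO pools differ was not tested. Every member tested had at least 206 counts in each pool.

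The replicate block gave a median of 0.18 and 0 calls among members, and 0.14 and 0 calls together with the correction for length and GC content. Same-numbered pools correlated at 0.14 (pool 1) and 0.078 (pool 2) in their deviations from genotype means. With only 2 CharmeKO pools, the deviations of one mirror those of the other. These values therefore cannot show whether same-numbered pools belong together.

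Of 640 values of named members under alternatives, 560 kept direction and side of the threshold, 32 newly passed it and 48 changed sign. With upper-quartile factors, Mrps12 (0.0077) and Mrps18a (0.028) changed sign. Without a filter on low counts, Mrpl10 (-0.021) and Mrpl44 (-0.0062) changed sign. With the replicate block, Mrpl10 (-0.057) and Mrpl44 (-0.030) changed sign. With the correction for length and GC content, Mrpl10 (-0.015), Mrpl44 (-0.053), Mrps18a (0.17), Mrps18c (-0.12) and Mrps30 (-0.16) changed sign. With the replicate block and that correction, Mrpl10 (-0.040), Mrpl44 (-0.067), Mrps12 (0.064), Mrps18a (0.10), Mrps18c (-0.20) and Mrps30 (-0.26) changed sign. With the correction and without CharmeKO pool 1, Mrpl10 (-0.036), Mrpl19 (-0.053), Mrpl36 (-0.17), Mrpl44 (-0.047), Mrpl45 (-0.016), Mrps12 (0.050), Mrps18a (0.032), Mrps18c (-0.15) and Mrps34 (0.028) changed sign. With the correction and without CharmeKO pool 2, Mrpl17 (-0.14), Mrpl44 (-0.045), Mrps18a (0.28), Mrps18c (-0.062) and Mrps30 (-0.39) changed sign. With each pool left out in turn, the range was -0.058 to 0.092 for Mrpl10, -0.073 to 0.28 for Mrpl19, -0.37 to 0.046 for Mrpl2, -0.12 to 0.024 for Mrpl3, -0.067 to 0.45 for Mrpl36, -0.49 to 0.062 for Mrpl43, -0.036 to 0.13 for Mrpl44, -0.25 to 0.16 for Mrps12, -0.078 to 0.060 for Mrps18a, -0.39 to 0.017 for Mrps2 and -0.84 to 0.090 for Mrps34.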
